A study of Mus musculus with 27 samples.

Results

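The 32 genes described here encode the machinery that acidifies lysosomes and breaks material down inside them, with the cathepsin proteases set aside. They were listed by name and function, all 32 were found among the 48440 gene identifiers of the macrophage RNA counts, and all 32 passed the filter on low counts. They comprise 6 proteins of the lysosomal membrane, 8 genes of lipid and sphingolipid breakdown, 6 of glycan and glycogen breakdown, 3 of protein turnover (progranulin among them), 8 subunits or partners of the proton pump, and the transcription factor gene Tfeb.

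KO samples came from Ogt-flox mice that also carried Lyz2-cre, and WT samples from Ogt-flox mice without it. All mice bore MC38 tumours, which grow from a mouse colon carcinoma line, and Ogt encodes the enzyme that attaches O-GlcNAc to proteins inside the cell. Tumour macrophages gave 3 KO and 3 WT RNA libraries, and CD45-positive tumour immune cells gave 2 KO and 2 WT single-cell samples, deposited as 1 matrix per genotype. EGR2 CUT&Tag and ATAC-seq of the same macrophages gave lists of peaks.

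Several features limit the KO as a model. The Lyz2 promoter drives cre in macrophages, monocytes and neutrophils alike, so any of these cells in the tumour may have lost Ogt. In macrophage RNA, Ogt averaged 34.7 ± 3.86 CPM in KO and 56.3 ± 6.24 CPM in WT (SD, n = 3 each). Here CPM is a gene's count scaled by the total of its library and by a normalisation factor (TMM) of that library. The factor leaves libraries with different sums. Over all genes tested, CPM summed to 968431 to 971613 in KO and 1027921 to 1035453 in WT. Lyz2 averaged 84.0 CPM in KO and 3882 CPM in WT, so the KO also lacked most RNA of lysozyme, itself a lysosomal enzyme of macrophages. Effects of cre, of the Lyz2 loss and of the Ogt deletion cannot be told apart. The labels do not say whether libraries came from separate animals, and the p-values then measure only the spread between these libraries.

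Lysosomes receive material from endocytosis, phagocytosis and autophagy. The proton pump, or V-ATPase, is built from a sector in the membrane that carries protons and a sector in the cytosol that splits ATP, and the acid it makes keeps the hydrolases active. Most hydrolases carry a mannose 6-phosphate tag that sorts them from the Golgi to the lysosome. TFEB, the product of Tfeb, binds a short palindromic E-box in promoters of many lysosomal genes and stays in the cytoplasm when the kinase complex mTORC1 is active. Macrophages are rich in lysosomes because they clear dead cells and debris.

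The TFEB-type E-box was searched for as the letters TCACGTGA, which read the same on both strands, in RefSeq promoter windows (GRCm38.p6) that run from 250 bases before to 50 bases after the gene start. A window was given for 26 of the 32 genes. It held TCACGTGA in 5 of them (19.2%), against 1.12% of all 27025 genes with a window and 2.28% of the 9355 that were also tested in macrophage RNA. These 5 were Mcoln1, Cln3, Gla, Atp6v0d1 and Atp6v1a. The shorter core CACGTG, which every TCACGTGA contains, was present in 9 of 26 (34.6%), adding Lamp1, Glb1, Naglu and Gaa, against 11.9% of tested genes. Promoter stretches of 4 of these genes are shown because this E-box was found in a larger share of these windows than of all windows. Capitals mark TCACGTGA and each sequence reads 5′ to 3′ on the gene's strand, which is the plus strand for Mcoln1 and the minus strand for the others.
Cln3 (chr7:126583325-126583384): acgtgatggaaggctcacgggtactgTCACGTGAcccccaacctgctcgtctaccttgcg
Mcoln1 (chr8:3500447-3500506): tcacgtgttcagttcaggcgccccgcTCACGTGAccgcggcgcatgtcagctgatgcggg
Atp6v1a (chr16:44139358-44139417): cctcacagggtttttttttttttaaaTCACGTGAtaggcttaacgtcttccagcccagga
Gla (chrX:134601167-134601255): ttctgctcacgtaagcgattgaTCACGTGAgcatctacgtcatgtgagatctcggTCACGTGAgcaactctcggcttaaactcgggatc
The Gla window held the E-box at 2 places. A match of letters describes the window and does not show that TFEB binds there. This E-box is already known from promoters of lysosomal genes, so its larger share in a list of such genes could be foreseen.

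In macrophage RNA, 18 of the 32 genes were higher in KO, 6 were lower and 8 had no call at an adjusted p below 0.05 (edgeR's quasi-likelihood test). The background was high in this comparison: 37.7% of the 12939 genes tested were called, 18.8% higher and 18.9% lower. The median log2 fold change of the 32 genes was 0.16, against -0.0013 over all genes tested. Values did not overlap for 20 genes with all 3 KO libraries above the WT libraries, against 23.3% of genes tested, and for 7 genes with all 3 below, also against 23.3%. Most differences were small, and 9 of the called genes were at least 25% higher in KO and 2 at least 20% lower, where 12.9% and 13% of all genes tested were called and past these folds.

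Summed over the 32 genes, the libraries held 16874 to 16980 CPM in KO and 14046 to 14349 CPM in WT. As a part of all counts this was between 1.73% and 1.74% in KO and between 1.36% and 1.38% in WT, and the libraries' totals ran from 11468556 to 32406170 counts in KO and from 7032540 to 12439582 in WT. Psap alone averaged 8981 CPM in KO and 7482 CPM in WT, so these sums follow Psap closely. The sums differed by role. Lipid-breakdown genes summed to a mean of 11073 CPM in KO and 9227 CPM in WT, and glycan-breakdown genes to 1435 CPM in KO and 1180.3 CPM in WT. The pump genes summed to between 1173 and 1201 CPM in KO and between 1196 and 1214 CPM in WT, ranges that overlapped.

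**Figure D1:**
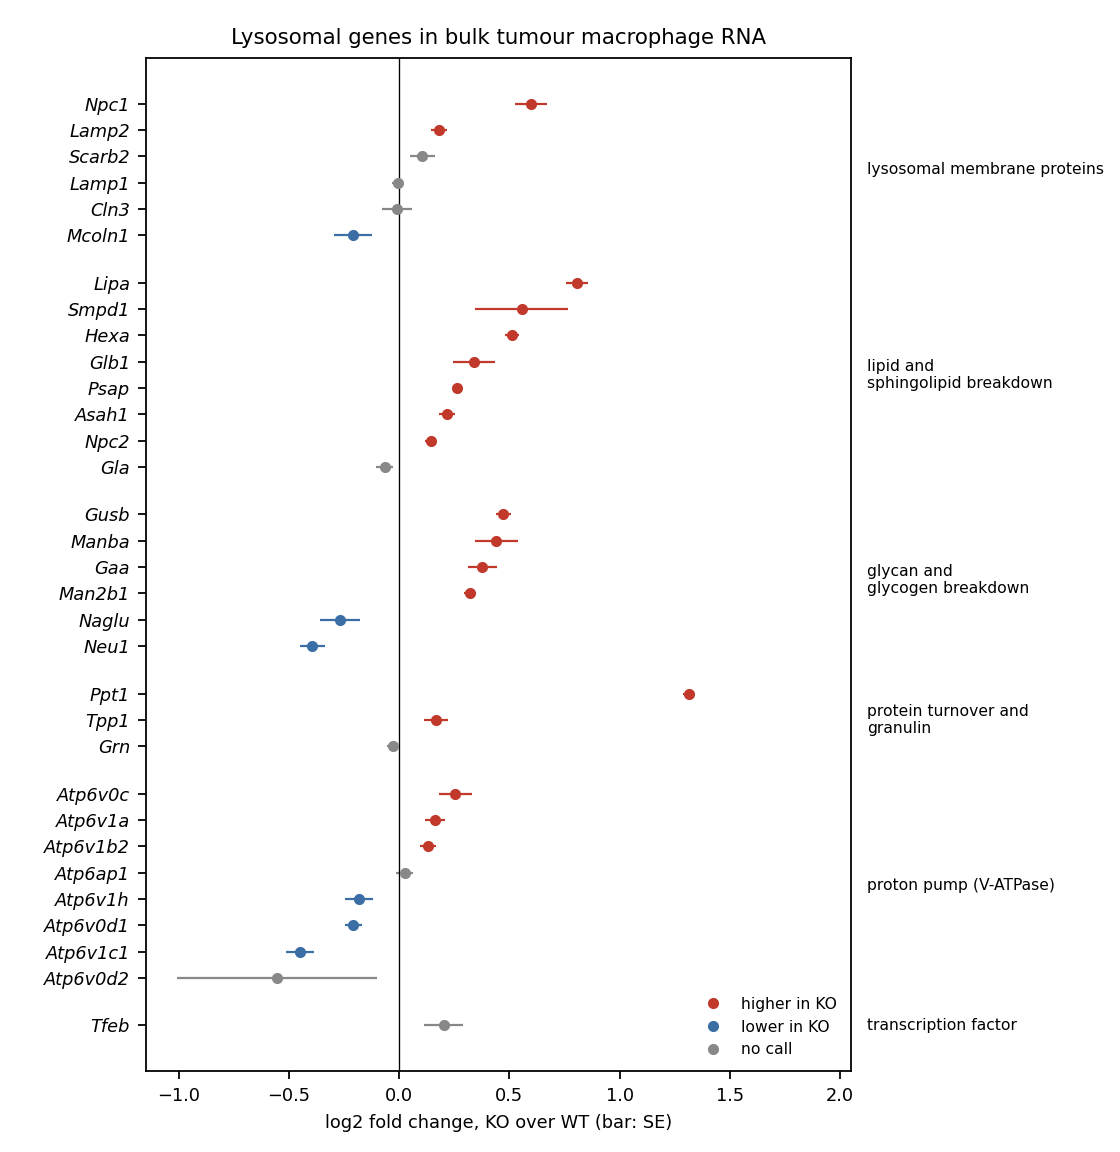
Log2 fold change, KO over WT, of the 32 genes in macrophage RNA, grouped by role, with the standard error as a bar and 3 libraries per genotype. Colour gives the edgeR call at an adjusted p below 0.05. Ppt1 stands at 1.31, 7 of 8 lipid-breakdown genes lie right of 0 as calls, and pump genes lie on both sides.

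The lipid-breakdown genes were the group with most calls in 1 direction: 7 of 8 were higher in KO, 1 had no call, and their median log2 fold change was 0.30. Psap (chr10:60277627-60302597) encodes prosaposin, the precursor of the saposins that present sphingolipids to their hydrolases. Its level was 8995, 9070.2 and 8877 CPM in the KO libraries and 7470.0, 7525 and 7451 CPM in the WT libraries. The groups were well apart, with a log2 fold change of 0.26 (SE 0.0123, adjusted p = 2.10e-29). Per kilobase of exon Psap was the most abundant of the 32 genes, with 3273 CPM per kb in KO and 2727 in WT. The next levels in KO were those of Lamp1, at 278 CPM per kb, Hexa, at 259, Npc2, at 252, and Ppt1, at 249.

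Lipa (chr19:34492318-34527474) encodes lysosomal acid lipase, which frees cholesterol and fatty acids from lipoprotein lipids. It reached 181, 189.6 and 187 CPM in KO and 107, 104 and 107 CPM in WT, a 1.75-fold difference without overlap (log2 fold change 0.81, SE 0.0505, adjusted p = 1.26e-22). Hexa (chr9:59539667-59565105), the alpha subunit of beta-hexosaminidase that degrades gangliosides, had 478, 478 and 492 CPM in KO and 351, 334 and 328 CPM in WT. Again no KO library overlapped a WT library (log2 fold change 0.51, SE 0.0315, adjusted p = 5.79e-23). Smaller rises were those of Asah1 (acid ceramidase, 0.22), Glb1 (beta-galactosidase, 0.34) and Npc2, the soluble cholesterol carrier (0.14). Smpd1 (acid sphingomyelinase) rose by 0.56, at a level of only 10.4 ± 2.86 CPM in KO and 7.16 ± 1.48 CPM in WT. That call was lost without KO library 3 (log2 fold change 0.32, adjusted p = 0.305), without WT library 1 (0.37, adjusted p = 0.24) and under DESeq2 (0.55, adjusted p = 0.073). Gla (alpha-galactosidase A) had no call, with 239 CPM in KO and 249.9 CPM in WT.

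Ppt1 showed the largest difference of the 32. This gene (chr4:122836242-122859175) encodes palmitoyl-protein thioesterase, which removes fatty acids from proteins in the lysosome. Its level was 909.6, 895 and 938 CPM in KO and 375, 372 and 354 CPM in WT. Every KO library lay far above every WT library, 2.49-fold on average (log2 fold change 1.31, SE 0.0282, adjusted p = 4.58e-49). About 3.51% of its exon bases overlap Cap1 on the annotation used for counting, which ignored the strand. Without any 1 library its log2 fold change stayed between 1.29 and 1.33.

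The other 2 genes of the protein-turnover group differed little. Tpp1, a tripeptidyl peptidase, had 144, 139.5 and 144 CPM in KO and 119, 139.1 and 124 CPM in WT. The lowest KO value and the highest WT value nearly met, and the call (log2 fold change 0.17, SE 0.0538, adjusted p = 0.0103) was lost without KO library 1 (adjusted p = 0.052) or WT library 1 (0.146). Grn, which encodes progranulin, had 717, 702 and 704 CPM in KO and 722, 726 and 721 CPM in WT. The 3 KO values lay just below the WT values and the difference was not called (log2 fold change -0.03, SE 0.0254, adjusted p = 0.374).

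All 6 glycan and glycogen genes were called, 4 higher and 2 lower, with a median log2 fold change of 0.35. Gusb (beta-glucuronidase) had 401, 398 and 404 CPM in KO and 284, 307 and 278 CPM in WT. Man2b1 (lysosomal alpha-mannosidase) had 719.5, 761 and 761 CPM in KO and 612, 595 and 584 CPM in WT. Both were higher without overlap, by 0.47 (SE 0.0339, adjusted p = 1.35e-19) and 0.32 (SE 0.0272, adjusted p = 2.00e-16) on the log2 scale. Manba (beta-mannosidase) and Gaa, the acid glucosidase that degrades glycogen, were higher by 0.44 and 0.38. Neu1 (chr17:34931253-34935953), the sialidase that trims terminal sialic acids, went the other way. It had 105, 99.9 and 107 CPM in KO and 144, 137 and 127 CPM in WT, all KO values below all WT values (log2 fold change -0.39, SE 0.056, adjusted p = 2.00e-08). Naglu, an enzyme of heparan sulfate breakdown, fell by 0.27, a call that was lost without KO library 3 (adjusted p = 0.111) or WT library 1 (0.0967).

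Of the 6 membrane proteins, 2 rose, 1 fell and 3 had no call. Npc1, the membrane protein that exports cholesterol, had 87.1, 86.2 and 90.4 CPM in KO and 62.1, 55.1 and 55.8 CPM in WT. Its KO values were all higher, with a log2 fold change of 0.60 (SE 0.0727, adjusted p = 1.68e-10). Lamp2, an abundant glycoprotein of the membrane, had 321, 314 and 332 CPM in KO and 294, 284 and 272 CPM in WT. That rise was smaller but also without overlap (log2 fold change 0.18, SE 0.0354, adjusted p = 2.18e-05).

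Mcoln1, a calcium channel, had 46.0, 48.6 and 49.9 CPM in KO and 55.3, 58.8 and 52.3 CPM in WT. Its values did not overlap, but the fall was at the edge of the threshold (log2 fold change -0.21, SE 0.0853, adjusted p = 0.0451) and kept its call in only 4 of 13 alternative settings. Lamp1, the most widely used lysosomal marker, had 743, 735 and 753 CPM in KO and 743, 773 and 721 CPM in WT. The KO values lay inside the WT range (log2 fold change -0.01, SE 0.026, adjusted p = 0.902), and the KO mean of 743 ± 9.04 CPM stood beside a WT mean of 746 ± 26.1 CPM. Scarb2, which carries glucocerebrosidase to the lysosome, and Cln3, whose loss causes a form of Batten disease, had no call at 0.11 and -0.01 on the log2 scale.

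**Figure D2:**
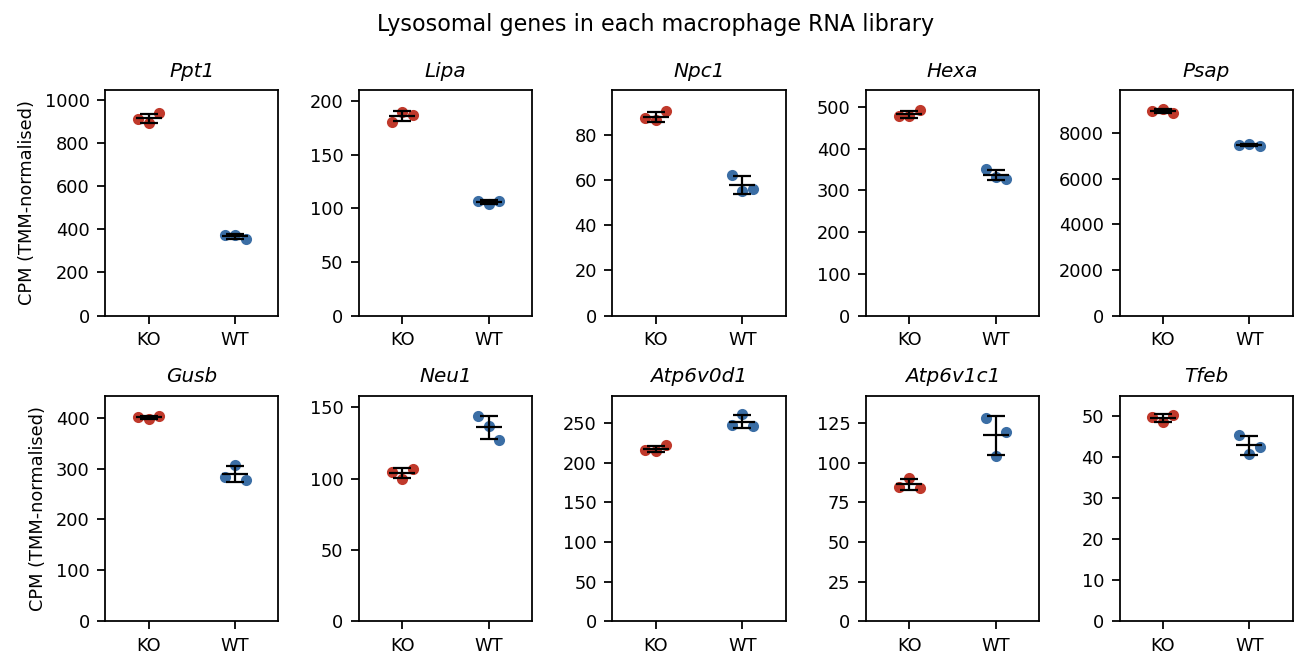
CPM of 10 of the genes in each macrophage RNA library, KO left of WT, with 3 points per genotype and the mean with SD as black lines. Each axis starts at 0. Ppt1 lies near 900 CPM in KO with WT libraries between 354 and 375 CPM, and Neu1, Atp6v0d1 and Atp6v1c1 are lower in all 3 KO libraries.

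The proton pump genes split evenly. Of 8, 3 rose, 3 fell and 2 had no call, with a median log2 fold change of -0.08. Atp6v1a, the catalytic subunit, had 192, 189 and 179 CPM in KO and 170.3, 162 and 168 CPM in WT. It rose slightly (log2 fold change 0.16, SE 0.0456, adjusted p = 0.00318), as did its partner in the ATP-splitting head, Atp6v1b2 (0.13), and the proton-carrying ring subunit Atp6v0c (0.25). The Atp6v1b2 call was lost without WT library 1 (adjusted p = 0.0742), and 27.4% of the exon bases of Atp6v0c overlap another annotated gene. Atp6v0c averaged only 75.75 CPM in KO and 63.3 CPM in WT, so the bulk pump sum holds little of it. In the macrophage-like single cells described below, on another scale, it had 951 CPM in KO and 852 CPM in WT. The cause of this difference in rank was not tested.

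Atp6v1c1 (chr15:38661904-38692443), a peripheral subunit that helps join the sectors, had 84.5, 90.3 and 84.3 CPM in KO and 128, 104 and 119 CPM in WT. It had the clearest fall of the pump genes (log2 fold change -0.45, SE 0.0633, adjusted p = 1.54e-08). Atp6v0d1 (chr8:105524465-105566047), which links the sectors, had 216, 215 and 222 CPM in KO and 247, 261 and 247 CPM in WT, also lower without overlap (log2 fold change -0.21, SE 0.0394, adjusted p = 1.28e-05). Atp6v1h fell by 0.18, and that call was lost without KO library 1 (adjusted p = 0.12) or WT library 2 (0.104), while the accessory subunit Atp6ap1 had no call (0.03). Atp6v0d2, an isoform of the linking subunit known from osteoclasts and macrophages, was nearly absent. It had 1.74, 1.70 and 1.60 CPM in KO and 1.32, 3.39 and 2.93 CPM in WT, overlapping groups with no call (log2 fold change -0.55, SE 0.454, adjusted p = 0.357).

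Tfeb had 49.7, 48.5 and 50.2 CPM in KO and 45.3, 40.8 and 42.5 CPM in WT. All KO values were above the WT values, by 0.20 on the log2 scale (SE 0.0895), but the adjusted p of 0.0681 missed the threshold. Of the 5 genes with TCACGTGA in their window, Atp6v1a was called higher, Atp6v0d1 and Mcoln1 lower, and Cln3 and Gla had no call.

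The other genes of the pathway were taken from 6 lists. Over all 12939 genes tested, 18.8% were called higher and 18.9% lower. Of 28 other hydrolases and activators, 15 rose and 2 fell, with a median log2 fold change of 0.19. The smallest adjusted p values among the rises were those of Naaa, an acid amidase (0.48, adjusted p = 2.82e-26), and Pld3, a lysosomal nuclease (0.68, adjusted p = 7.15e-19). Arsa, arylsulfatase A, was among those that fell (-0.29, adjusted p = 0.0288). Naaa is also 1 of the 7 markers of type 1 dendritic cells (cDC1) used below. Of 9 genes of mannose 6-phosphate tagging and sorting, 3 rose and none fell in edgeR or DESeq2, and 1 fell at an unadjusted p below 0.05. They included Igf2r, the larger mannose 6-phosphate receptor (1.21, adjusted p = 3.66e-09), and Sort1, sortilin (0.99, adjusted p = 7.20e-07).

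The rest of the pathway did not share this direction. These lists are short, and the shares over all genes tested were again 18.8% higher and 18.9% lower. Of 16 other pump subunits 11 passed the filter, and of these 0 rose and 4 fell in edgeR and in DESeq2 (median -0.13, and 0 rose at an unadjusted p below 0.05), led by Atp6v0a1, a subunit of the membrane sector (-0.60, adjusted p = 1.87e-09), and Atp6v1f (-0.31, adjusted p = 5.67e-06). Among 17 MiT/TFE factors (the family of TFEB) and regulators of mTORC1 at the lysosome, 5 fell and none rose in edgeR and in DESeq2, and 1 rose at an unadjusted p below 0.05. Examples are Flcn, folliculin, an activator of the Rag GTPases (-0.38, adjusted p = 1.46e-09), and Rheb, the GTPase that switches mTORC1 on (-0.36, adjusted p = 5.05e-08). The list of 19 other membrane proteins and transporters split into 6 higher and 6 lower. Slc29a3, a nucleoside transporter (0.65, adjusted p = 8.01e-20), and Cd68, the macrophage membrane glycoprotein (0.36, adjusted p = 3.58e-18), rose, while Slc15a3, a peptide and histidine transporter (-0.18, adjusted p = 8.13e-08), and Tpcn2, an ion channel (-0.35, adjusted p = 0.000355), fell. Of 16 autophagy genes, 2 rose, Atg7 (0.38, adjusted p = 0.00079) and Atg5 (0.31, adjusted p = 0.0117), and 4 fell, among them the cargo receptor Sqstm1 (-0.19, adjusted p = 2.66e-11) and Gabarap, which coats autophagosomes (-0.13, adjusted p = 0.000526).

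Markers of other cells moved in the same libraries, and their part in these results was not tested. All 12 macrophage markers passed the filter, summing to 11289 to 11498 CPM in KO and 12107 to 12386 CPM in WT, with 5 higher and 6 lower. The 7 cDC1 markers summed to 1787 to 1811 CPM in KO and 1318 to 1326 CPM in WT, with 5 higher and 1 lower, and Xcr1, which defines these cells, at 43.8 CPM in KO and 14.0 CPM in WT. Of 12 monocyte markers 8 were higher and 1 lower, with 1992 to 2002 CPM in KO and 1882 to 1922 CPM in WT. The 7 CD8 T cell markers were all higher, summing to 199 to 215 CPM in KO and 102 to 106 CPM in WT. Of 7 CD4 T cell markers 6 were tested and 5 were higher, with 178 to 194.5 CPM in KO and 110.4 to 119 CPM in WT. Of 7 B cell markers 6 were tested, 3 higher and 1 lower, with 111.5 to 118 CPM in KO and 54.6 to 57.4 CPM in WT. Of 10 fibroblast or endothelial markers 8 were tested and 3 were higher, with 103 to 117 CPM in KO and 79.0 to 87.5 CPM in WT. Of 8 markers of migratory dendritic cells 7 were tested and all 7 were lower, with 322 to 330.4 CPM in KO and 716 to 742 CPM in WT. Of 8 neutrophil markers 5 were lower and 1 higher, with 111 to 121 CPM in KO and 147 to 162 CPM in WT, and S100a8 at only 0.456 CPM in KO and 1.07 CPM in WT. In bulk RNA, fewer cells of a type and less RNA per cell cannot be told apart.

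The single-cell matrices place the 32 genes in cell classes. From the KO matrix 9767 cells were kept and from the WT matrix 9712, with medians of 5807 and 5579 UMIs (unique RNA molecules counted), and 23 barcodes occurred in both. Cells were clustered without the 32 genes and the other lysosomal genes, so that those genes did not define the clusters, and clusters were named from markers. With 1 matrix per genotype no difference can be tested. Levels are given as CPM of the summed UMIs of a class, with exact Poisson 95% intervals that cover counting error only. RNA set free by broken cells was not removed, so low levels in lymphocytes may hold some of it.

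Lysosomal RNA was concentrated in myeloid cells. The 32 genes made up 0.692% of UMIs in KO and 0.627% in WT monocyte-like cells, 0.64% (0.635 to 0.644) in KO and 0.517% (0.514 to 0.521) in WT macrophage-like cells, 0.565% in KO and 0.462% in WT neutrophil-like cells, and 0.516% in KO and 0.483% in WT cDC1-like cells. In the T, NK and gamma-delta T or ILC-like classes the share lay between 0.125% and 0.175% in KO and between 0.119% and 0.161% in WT. The KO share was the higher one in every one of these 9 classes, least so in NK-like cells with 0.126% in KO and 0.125% in WT. The intervals overlapped in NK-like cells (0.1242 to 0.1287 in KO and 0.1229 to 0.1269 in WT). They also overlapped in CD4 T-like cells (0.1228 to 0.129 in KO and 0.1155 to 0.1234 in WT).

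**Figure D3:**
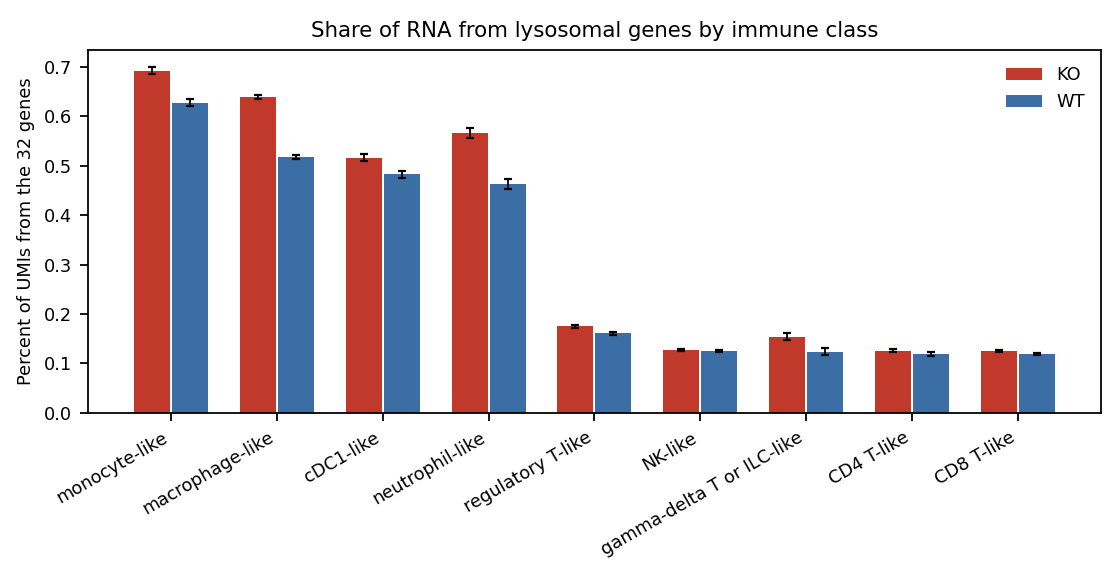
Percent of all UMIs of a class that came from the 32 genes, KO bars left of WT bars, with exact Poisson 95% intervals from 1 matrix per genotype. Myeloid classes stand between 0.46 and 0.69%, and lymphoid classes below 0.18%.

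The classes differed in which genes they carried. Within KO, 13 of the 32 genes were highest in macrophage-like, 11 in neutrophil-like, 5 in monocyte-like and 1 in cDC1-like cells, and within WT 7 were highest in macrophage-like, 11 in neutrophil-like, 7 in monocyte-like and 3 in cDC1-like cells. The highest class was the same in both genotypes for 22 genes and differed for 10. Some of these 10 were near ties, such as Atp6v1h in WT, at 98.2 CPM in macrophage-like and 97.1 CPM in neutrophil-like cells. Others rested on few UMIs, such as Mcoln1 in WT, with 15 UMIs in neutrophil-like cells. Neutrophil-like cells held the most RNA of the pump genes together in both genotypes. They had 3066 CPM of the 8 pump genes in KO and 2338 in WT, against 1689 in KO and 1486 in WT macrophage-like cells. Atp6v0c alone had 1885 CPM in KO and 1286 CPM in WT neutrophil-like cells, so these sums follow it closely. Atp6v1b2 and Atp6ap1 were not highest in neutrophil-like cells in either genotype. Among the 9 classes, macrophage-like cells were highest in both genotypes for 6 genes, the hydrolases Hexa, Gusb, Naglu, Gaa and Tpp1, and Grn. The plasmacytoid dendritic cell-like class, not ranked for its few cells, had more Grn, with 886 CPM in KO (129 UMIs) and 654 CPM in WT (192 UMIs). Lipa was highest in macrophage-like cells in KO, at 68.6 CPM, but in monocyte-like cells in WT, at 40.3 CPM. Ppt1 was likewise highest in macrophage-like cells in KO, at 269 CPM, and in cDC1-like cells in WT, at 210.1 CPM. With both matrices pooled, the widest spread of a single gene between classes was that of Atp6v0d2, at 33.2 CPM in neutrophil-like and 0.153 CPM in CD8 T-like cells, a level there of 4 UMIs in all. Smpd1 had 18.1 CPM in regulatory T-like and 0.262 CPM in neutrophil-like cells, and Glb1 35.8 CPM in gamma-delta T or ILC-like and 1.31 CPM in neutrophil-like cells. These low levels rest on 1 UMI for Smpd1 and 5 UMIs for Glb1, so the order of the 3 genes is not firm. The most even genes were Mcoln1 (7.85 CPM in the highest class and 3.11 in the lowest), Atp6v1h (117 and 44.1 CPM) and Tpp1 (47.2 and 16.1 CPM).

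**Figure D4:**
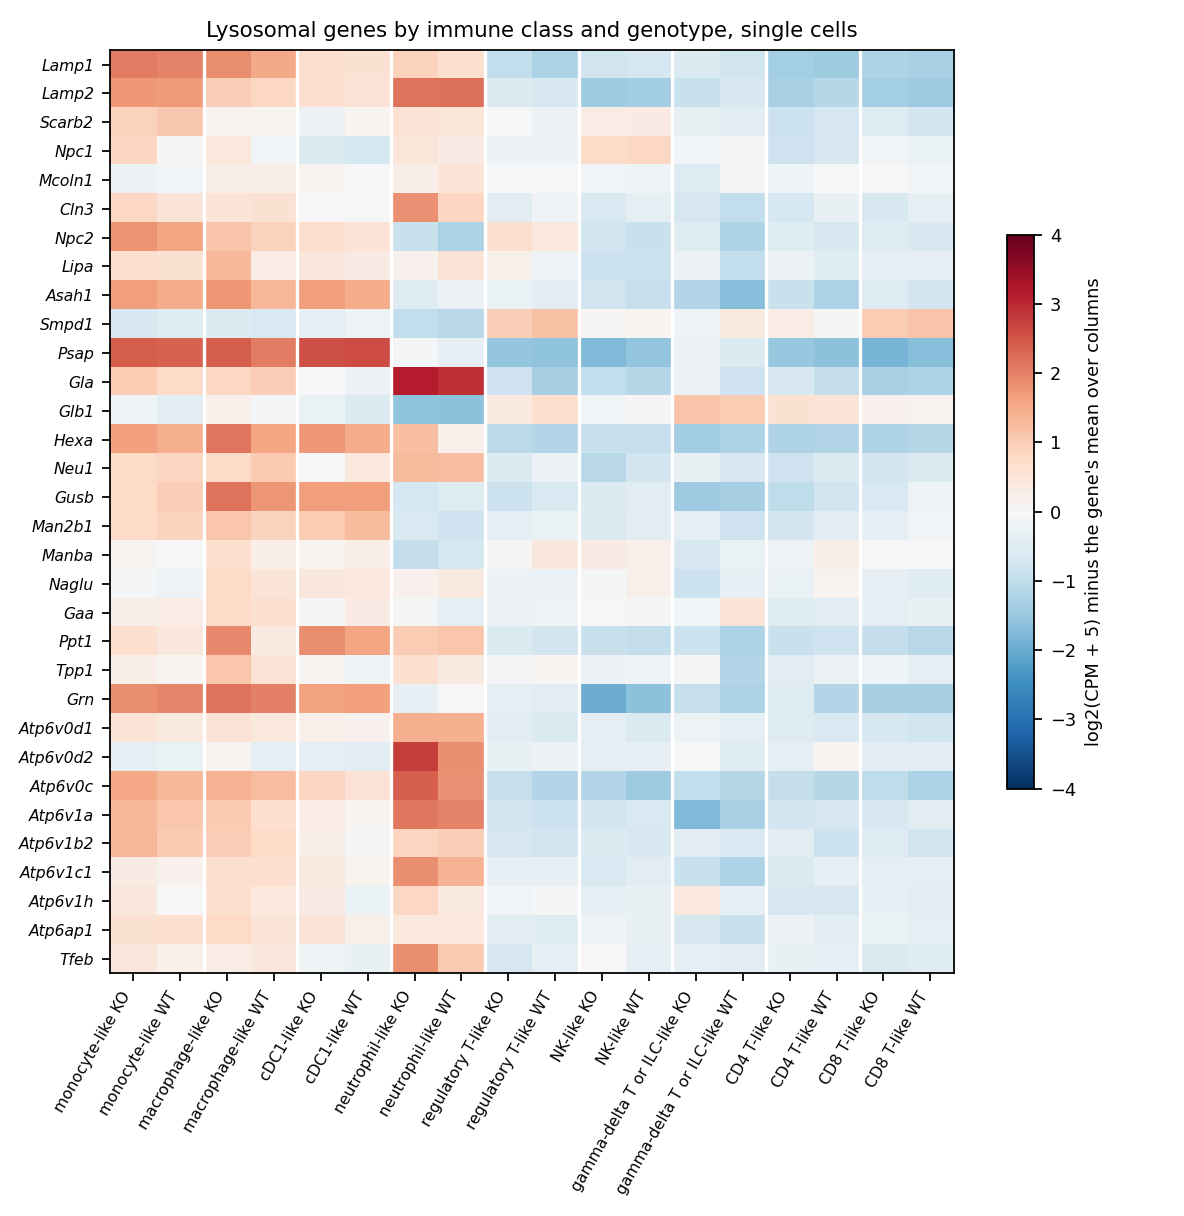
Level of each gene in each class and genotype as log2(CPM + 5) minus that gene's mean over the 18 columns, KO column left of the WT column in each pair. Psap, Hexa, Gusb, Grn and Asah1 are high in macrophage-, monocyte- and cDC1-like columns, and Gla, Atp6v0d2 and Atp6v0c in neutrophil-like columns.

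In macrophage-like cells 30 of the 32 genes had at least 100 UMIs, and 11 of these were at least 25% higher in KO and none was at least 20% lower. Over all 10397 genes with 100 UMIs, 14.9% passed that fold upward and 6.09% downward. The median log2 ratio was 0.23 for the 30 genes and 0.07 for all genes. Ppt1 again led, with 269 CPM (261 to 278) in KO and 87.8 CPM (83.4 to 92.4) in WT. Lipa had 68.6 CPM (64.4 to 73.0) in KO and 31.4 CPM (28.8 to 34.2) in WT, and Hexa 151 CPM (145 to 158) in KO and 102 CPM (96.7 to 106) in WT. Next came Npc1 (44.2 CPM in KO and 28.9 in WT) and Tpp1 (57.5 CPM in KO and 38.4 in WT), then Asah1, Manba, Gusb, Atp6v1a, Psap and Lamp1 at 1.27- to 1.33-fold. The intervals of Ppt1, Lipa, Hexa and Npc1 were among those that lay apart between the genotypes. With a stricter cell filter, or with finer clusters, the count of 11 was 7.

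The lowest ratios were those of Neu1 (49.7 CPM in KO and 62.4 in WT), Gla (87.9 CPM in KO and 99.5 in WT) and Tfeb (21.9 CPM in KO and 24.6 in WT). Set beside the bulk calls, all 17 genes called higher in bulk that had 100 UMIs had a ratio above 1 here. Of the 6 called lower in bulk, 4 had a ratio above 1, among them Atp6v0d1 (145 CPM in KO and 130.0 in WT), and 2 below, Neu1 and Atp6v1c1 (77.0 CPM in KO and 77.4 in WT). Of the 7 without a call in bulk, 4 had a ratio above 1 and 3 below. Most of the genes thus had a ratio above 1 whatever their bulk call, and the same counts over all genes were not made. Atp6v0d2 had only 41 UMIs in KO and 6 in WT macrophage-like cells.

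The macrophage-like class was not made of the same clusters in both genotypes. Cluster 5, led by Spint1 and MHC class II genes, held 63.5% of its cells in KO (998 cells) and 77.5% in WT (1653 cells). Cluster 15, led by Vcam1, Ccl12 and C1q genes and deep at a median of 17385 UMIs per cell, held 19.9% of its cells in KO and 9.85% in WT, and 44.1% of its UMIs in KO and 18.9% in WT. In that cluster the 32 genes made up 0.801% of UMIs in KO and 0.662% in WT, against 0.504% in KO and 0.476% in WT of cluster 5. A class value therefore mixes a difference in cluster shares with differences inside clusters, and the values inside clusters follow.

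In cluster 15, 10 of 29 genes with 100 UMIs passed the same fold upward in KO and 3 downward, where 25.2% of all such genes passed upward and 12.8% downward. In cluster 5, 2 of 30 passed upward and 1 downward, where the background was 8.77% and 5.92%. Cluster 6, led by Arg1, Pf4 and Ccl24, scored best for macrophages, at 1.03. It had no name because its leading genes held the monocyte marker F13a1 and no macrophage marker. Its 1043 KO and 626 WT cells are therefore not part of the macrophage-like class. There 6 of 27 passed upward and 1 downward, against 11.6% and 5.02% of genes, and the share of UMIs was 0.549% in KO and 0.473% in WT. In the monocyte-like cluster 4, led by Chil3, 2 of 27 passed upward and none downward, against 6.93% and 7.58%. Cluster 7, led by interferon-induced Ifit genes, had the opposite order of shares, 0.454% in KO and 0.505% in WT. There 4 of 17 genes passed upward and 6 downward, against 21.4% and 11.7% of genes. Cluster 14, a second cluster led by Ccl12, Cd63 and C1q genes but shallow, at a median of 2390 UMIs, had 0.732% in KO and 0.722% in WT. Of its 10 genes with 100 UMIs, 4 passed upward and 2 downward, against 29.5% and 17.5% of genes.

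Ppt1 differed most in the clusters rich in C1q RNA. Ppt1 stood at 463 CPM in KO and 164 in WT cells of cluster 15, at 387 CPM in KO and 189 in WT cells of cluster 14, and at 106 CPM in KO and 68.6 in WT cells of cluster 5. It differed little in the Arg1-led cluster 6, at 66.1 CPM in KO and 59.7 in WT, and in monocyte-like cells, at 109 CPM in KO and 94.0 in WT. In cluster 7 Ppt1 was lower in KO, at 37.9 CPM in KO and 53.7 in WT. That value rests on 28 UMIs in KO and 60 in WT, fewer than the 100 required. The cDC1-like class, whose markers were higher in KO bulk RNA, had 257 CPM in KO and 210.1 CPM in WT. Bulk values of Ppt1 were 914 CPM in KO and 367 CPM in WT, on a scale that counts reads along the whole transcript and so cannot be set against these levels.

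Lipa behaved like Ppt1 in cluster 15, with 111 CPM in KO and 53.6 in WT, and differed less in cluster 5 (33.1 CPM in KO and 25.9 in WT) and cluster 6 (27.1 CPM in KO and 25.9 in WT). Npc1 was higher in KO in each of the 4 clusters where it had 100 UMIs. It had 61.3 CPM in KO and 33.1 in WT in cluster 4, 47.1 in KO and 30.1 in WT in cluster 5, 65.4 in KO and 44.9 in WT in cluster 6, and 43.7 in KO and 27.4 in WT in cluster 15. Neu1 was lower in KO in all 5 clusters where it could be measured, most in cluster 7 (46.0 CPM in KO and 64.5 in WT) and cluster 15 (47.0 CPM in KO and 62.7 in WT). Gla was lower in cluster 15 (62.9 CPM in KO and 98.2 in WT) and not in clusters 4, 5, 6 and 7. Tfeb was also lower in cluster 15 (20.7 CPM in KO and 29.9 in WT), and level in cluster 5 (23.6 CPM in KO and 23.6 in WT).

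**Figure D5:**
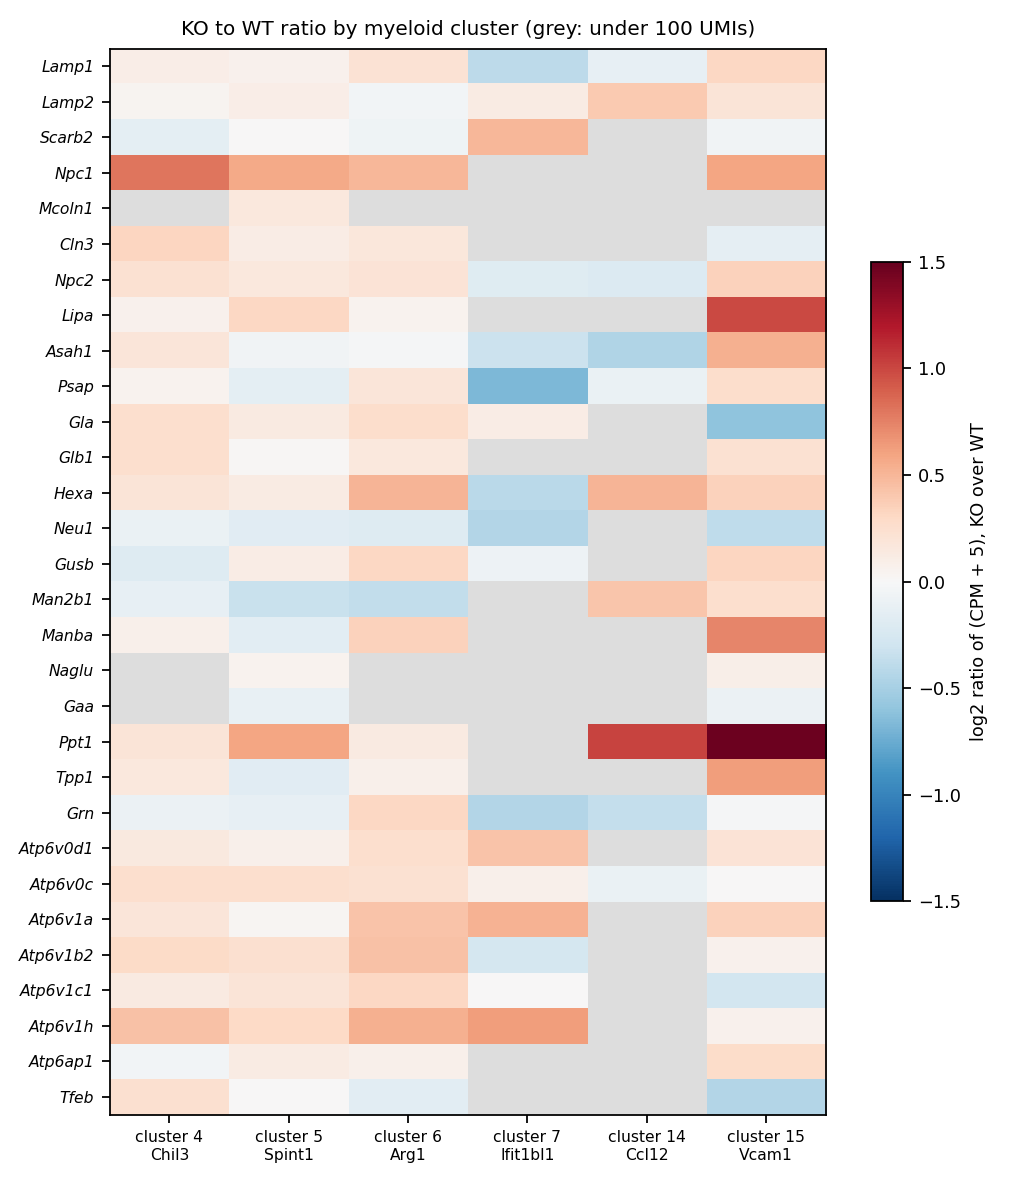
Log2 ratio of (CPM + 5), KO over WT, for each gene in 6 myeloid clusters, each labelled with its leading gene, with grey cells where fewer than 100 UMIs were counted. Ppt1 and Lipa are highest in cluster 15, at 1.47 and 0.98, and Npc1 is above 0 in every cluster where it is drawn.

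Neutrophil-like cells, a type in which Lyz2-cre is also active, had 8 of 25 genes past that fold upward in KO and 2 downward, against 15.4% and 20.3% of the genes with 100 UMIs. Hexa had 76.7 CPM (65.6 to 89.2) in KO and 35.5 CPM (26.9 to 46.0) in WT, and Cln3 had 110.1 CPM in KO and 54.1 CPM in WT. Tfeb had 74.0 CPM (63.1 to 86.3) in KO and 40.5 CPM (31.2 to 51.6) in WT, Atp6v0d2 42.4 CPM (34.3 to 51.9) in KO and 20.5 CPM (14.1 to 28.8) in WT, and Atp6v0c 1885 CPM in KO and 1286 CPM in WT. The intervals of Hexa, Tfeb and Atp6v0d2 were among those that did not overlap between genotypes. Those of Ppt1 overlapped, with 139.9 CPM (125 to 156) in KO and 150.0 CPM (132 to 170.2) in WT. In CD8 T-like cells none of 29 genes passed the fold upward and 1 passed downward, against 5.81% and 9.88% of genes, and in NK-like cells 1 of 30 passed upward and 2 downward, against 3.18% and 7.3%.

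For peaks, a gene's start is the outer end of the gene model used for counting. It can differ from the RefSeq start of the promoter windows, and promoters away from it were not examined. For Cln3 that end is chr7:126585817, and the promoter stretch shown above lies outside 1 kb of it. Within 1 kb of starts so defined, listed peaks of EGR2 binding and of open chromatin were about as seldom as over all genes tested. An EGR2 peak of the KO list came within 1 kb of the start of 1 of the 32 genes, against 0.788% of all genes tested, and of the WT list at none, against 1.12%. The 1 peak lay at Gaa (chr11:119268102-119268602, mm10), centred 465 bases inside the gene, and the same place held an ATAC peak. ATAC peaks came within 1 kb of 3 of the 32 starts (9.38%), those of Gaa, Lipa and Atp6v1c1, against 8.47% of genes tested. The EGR-type letters GCGTGGGCG were in none of the 26 promoter windows, against 1.51% of tested genes. Lists were deposited per genotype or merged, so replicates cannot be compared.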

How the data were processed

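The 3 KO and 3 WT macrophage RNA files hold raw counts per gene. Per the file headers, featureCounts 2.0.6 made these counts from GENCODE vM10 exons. The headers also show that strand was ignored, no option to count multi-mapped reads was set and each read of a pair was counted: 81.12% of counts from 1 to 20 were even. The single-cell files, which their headers credit to Cell Ranger 8.0.1, were deposited as UMI counts for every barcode, with 1257581 barcodes and 85418469 UMIs in KO and 1210511 barcodes and 85755359 UMIs in WT. Each deposited peak carries a score by the authors, and positions are on mm10 per the submitters' processing notes. The score was used only to pick stricter peaks within a list. How the reads were trimmed and aligned, and which peak caller was used, is not given in the sources used here.

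Counts were tested with edgeR 4.0.16 in R 4.3.3 (filterByExpr, TMM, quasi-likelihood F-test, 2-sided, Benjamini-Hochberg over all 12939 genes tested), KO against WT, and called at an adjusted p below 0.05. CPM are TMM-normalised, and SE is that of the log2 fold change. Symbols came from a name table that matched 48058 of 48440 identifiers.

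Cells needed at least 500 genes and 1000 UMIs, with no more than 10% of UMIs mitochondrial. Scrublet called and removed 319 KO (3.16%) and 501 WT (4.91%) doublets. Clusters came from scanpy 1.11.5 at Leiden resolution 1, on 15 neighbours in 30 components of 2000 variable genes. A cluster was named when at least 3 markers were each found in 20% of its cells, its best score was at least 0.3 and 0.05 above the next, and its 10 leading genes did not hold more markers of another class. Plasmacytoid dendritic and B cell clusters, with under 50 cells per genotype, were left out. Ratios are of CPM + 5, among genes with at least 100 UMIs in the class.

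By the rule for named genes, Tfeb, Lamp1, Atp6v0d2 and the 3 genes with the smallest adjusted p per role are given in every library, and up to 2 called genes per direction of each other list are named, except that some genes are not reported here. In single cells the genes with the 3 widest or narrowest ratios are named as well, and other genes there were chosen after their values were seen. The 32 genes and the lists were chosen with earlier results of these data known. The scripts were tested on simulated data. Samples of EGR2 ChIP-seq, H3K27ac and H3K4me1 were not used here. The alternatives were other scalings, DESeq2 1.42.0, other filters, counts of read pairs, a replicate block, leaving out each library, and other cell filters, clusterings, pseudocounts, folds and peak windows.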

Additional observations from a re-analysis of the deposited data

Results flagged for a closer look

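For 3 of the genes the KO to WT ratio in single cells had opposite directions in 2 myeloid clusters, each ratio past the fold used in its own direction. Asah1 had a log2 ratio of 0.53 in cluster 15, where KO cells had 211 CPM and WT cells 145 CPM, and of -0.45 in cluster 14, where KO cells had 149 CPM and WT cells 206 CPM. Hexa had a log2 ratio of 0.51 in cluster 14, where KO cells had 272 CPM and WT cells 189 CPM, and of -0.41 in cluster 7, where KO cells had 52.8 CPM and WT cells 71.6 CPM. Man2b1 had a log2 ratio of 0.42 in cluster 14, where KO cells had 188 CPM and WT cells 139.5 CPM, and of -0.37 in cluster 6, where KO cells had 42.3 CPM and WT cells 56.1 CPM. These differences were not tested, since each genotype has 1 matrix. Of all genes with 100 UMIs, 29.5% passed the fold upward and 17.5% downward in cluster 14. In cluster 7 these shares were 21.4% and 11.7%, in cluster 15 25.2% and 12.8%, and in cluster 6 11.6% and 5.02%. How many of all genes had opposite ratios in 2 clusters was not counted. Clusters 7 and 14 were small, with 117 KO and 159 WT cells and with 143 KO and 110 WT cells, and the lowest of these values rest on 39 UMIs for Hexa and 42 UMIs for Man2b1.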

How the results depend on the processing

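Of the main values recomputed under the alternatives, 226 kept within the range set for them and 30 moved, and none of the single genes changed direction as a call: 558 kept their call or value, 78 moved and 19 lost a call. Without a filter on low counts 1 of the other hydrolases was lower in place of 2, and the median of all 22602 genes then tested shifted to 0.13. Leaving out 1 library at a time gave between 1 and 2 lower other hydrolases, between 3 and 6 lower other membrane proteins, between 0 and 1 lower sorting genes, between 0 and 1 higher MiT/TFE and mTORC1 genes, and between 1 and 2 higher autophagy genes. With the replicate number as a block, 18 of the 32 genes were higher and 5 lower, and the call of Mcoln1 was lost (adjusted p = 0.0573); over all genes 2338 were higher and 2353 lower. The labels do not say that equal numbers mark a shared animal or day, and the deviations of KO and WT libraries correlated within 0.007 of 0 for every pairing.

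In macrophage-like cells, 11 genes were past the fold upward and 0 downward. With a pseudocount of 1 CPM or with the looser cell filter 1 gene was lower, and 2 were higher at 1.5-fold, 7 with the stricter filter and 7 at Leiden resolution 2. The percent of UMIs from the 32 genes was 0.6099 in KO and 0.5086 in WT with the unnamed cluster best matching macrophages added, a choice made after seeing the data. It was 0.6253 in KO and 0.5284 in WT with the looser filter, 0.6074 in KO and 0.5139 in WT with the stricter filter, 0.6176 in KO and 0.5126 in WT with doublets kept, 0.6088 in KO and 0.5091 in WT with lysosomal genes kept for clustering, 0.5998 in KO and 0.5034 in WT at resolution 0.5, and 0.6103 in KO and 0.5140 in WT at resolution 2. KO was higher in each. Within 5 kb, 1 gene start had a peak of the WT EGR2 list (3.12%, against 4.62% of all genes tested). An ATAC peak came within 5 kb of 5 gene starts (15.6%, against 23.2%). The cause of these shifts was not tested.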
